A study of Mus musculus with 23 samples.

Results

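Vascular smooth muscle cells were taken here as the barcodes of a mouse brain single-cell data set that carried the contractile programme of the vessel wall. A barcode with at least 500 genes, at least 800 UMIs (unique molecular identifiers, each counting 1 captured RNA molecule) and at most 10% mitochondrial UMIs was a member when it met both conditions of a rule. At least 3 of 6 markers (Acta2, Myh11, Tagln, Mylk, Cnn1, Myl9) had to have a UMI, and the summed UMIs of these 6 had to exceed those of 10 genes of pericytes, endothelial cells, astrocytes, microglia and fibroblasts (Kcnj8, Abcc9, Atp13a5, Cldn5, Flt1, Aqp4, Gja1, Cx3cr1, P2ry12, Dcn). Of 249715 barcodes that passed the filter, 2747 were members. The members were thus chosen by the measured UMIs of these 16 genes, so their values are given as a description only. They stayed in the fits over all genes and in totals of called genes, but the counts of marker genes called below leave them out.

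The study dosed mice of 12 weeks (3.3 months in the labels) with an intravenous AF647-labelled antibody at 45 mg/kg and sorted brain cells by this dye a day later. Mice with the TfR mu/hu KI genotype, a mouse/human knock-in of the transferrin receptor, received ATV-TfR, an antibody transport vehicle that binds this receptor. Mice with the CD98hc mu/hu KI genotype received ATV-CD98hc, which binds CD98hc, and C57BL/6 mice received control IgG, so that treatment and genotype cannot be told apart. Live cells were gated into negative, low, medium and high AF647 bins, with the positive gates set on ATV-TfR cells and used for every treatment. All 3 antibodies carried the LALAPG substitutions, which weaken binding to Fc gamma receptors. Brains lacked olfactory bulbs, cerebellum, pons and medulla, and transcription and translation inhibitors were present during dissociation. Each of 2 pools per treatment joined the cells of 1 male and 1 female, and the 4 bins of a pool come from the same animals. The control IgG negative bin is represented by replicate 2 alone, which gives 23 libraries in 12 groups.

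Smooth muscle cells wrap arteries, arterioles and, more sparsely, veins of the brain, and set vessel diameter by contracting. Calcium entering or released from stores activates myosin light chain kinase (Mylk), which lets smooth muscle myosin (Myh11) pull on actin (Acta2), and calponin (Cnn1), transgelin (Tagln), tropomyosins and caldesmon tune that movement. Transcription of many of these genes runs through serum response factor and its partner myocardin, which act on a short DNA element called the CArG box. Pericytes are the neighbouring mural cells of capillaries and share Notch3, Pdgfrb and Rgs5 with smooth muscle, while endothelial cells form the inner tube and astrocyte endfeet cover the outside.

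The libraries held 526 to 20570 filtered barcodes, and 1861238 to 90307818 UMIs over all deposited barcodes. The members of a library held 31765 to 5058245 UMIs, with a median of 3033 to 7743 per member. Of the members, 1667 came from ATV-TfR, 573 from ATV-CD98hc and 507 from control IgG. Among filtered barcode sequences, 7598 of 241978 occurred in more than 1 library. Of the member sequences, 170 of 2747 were also seen in another library, and 0 were members in more than 1. Scrublet, a doublet caller, marked 280 of the 2747 members and 15689 of all barcodes that passed the filter (6.28%). It marked 74 of 447 members in control IgG negative, and 98 of 842 and 51 of 624 in ATV-TfR negative. In ATV-TfR medium it marked 0 of 36 and 0 of 20. Leaving out doublets thus took members from the negative side alone when ATV-TfR medium was compared with negative. Marked members were kept in the values below.

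The label was checked against genes outside the rule. The 8 other smooth muscle genes (Pln, Tpm2, Mustn1, Smtn, Lmod1, Des, Synpo2, Sncg) summed to 11087 to 11654 CPM, a gene's UMIs over all UMIs of the members on the usual CPM scale, in the negative libraries of ATV-TfR. They summed to 9407 to 10632 in those of ATV-CD98hc and to 8761 in that of control IgG. In control IgG the median member had 53 UMIs of these 8 genes in the negative bin, but 4 among the 16 members of the medium bin and 5.5 among the 14 of the high bin. The same medium and high members had medians of 17.5 and 28 UMIs of 6 fibroblast genes, 1 of which (Dcn) the rule used. Those 30 barcodes are called members by the rule below, not smooth muscle cells. The 19 members of ATV-CD98hc high had a median of 11 UMIs of the 8 genes, against 45 in its negative bin. Of these 19, 7 fell in the fibroblast-led cluster described below.

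Most members cleared the rule by a wide margin. All 6 markers were detected in 1082 members, 5 in 1339, 4 in 130 and exactly 3 in 196. The median member had 202 UMIs of the 6 markers, those with exactly 3 markers had 11, and 348 non-members with exactly 2 had 8. Another 39 members led the other 10 genes by a single UMI, and 42 barcodes with 3 or more markers were left out because both sums were equal. A further 1496 barcodes with 3 or more markers had fewer UMIs of the 6 than of the 10.

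The stretches below show the CArG box, the element bound by serum response factor, in 8 smooth muscle genes. It was searched as CC, 6 letters that are each A or T, then GG, a pattern that reads the same on both strands. The search covered 250 bases before to 50 after each gene's start in RefSeq on GRCm38.p6, the build of the deposited counts. Of 49 smooth muscle genes looked for (the rule's markers, the contractile list and the leading genes below), 38 had a window and 8 held the box (21.1%), against 488 of 27025 genes with a window (1.81%). The 49 genes were chosen with results of these data known, and a match is a description of letters, not of binding. Each line shows bases before the gene's start, 5′ to 3′ on the gene's strand, with the box in capitals.
Myl9 (chr2:156775278-156775337, plus strand): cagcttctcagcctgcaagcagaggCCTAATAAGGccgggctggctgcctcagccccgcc
Fbxl22 (chr9:66514781-66514840, minus strand): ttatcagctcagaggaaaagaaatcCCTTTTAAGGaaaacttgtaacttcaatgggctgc
Myl6 (chr10:128493025-128493084, minus strand): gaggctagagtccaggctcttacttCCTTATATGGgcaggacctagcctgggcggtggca
Vcl (chr14:20929148-20929205, plus strand): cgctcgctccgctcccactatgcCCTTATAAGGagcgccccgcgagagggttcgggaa
Ldb3 (chr14:34588682-34588741, minus strand): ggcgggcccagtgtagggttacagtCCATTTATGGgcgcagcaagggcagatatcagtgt
Filip1l (chr16:57549155-57549214, plus strand): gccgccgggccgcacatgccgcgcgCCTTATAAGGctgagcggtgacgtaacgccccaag
Myom1 (chr17:71019433-71019492, plus strand): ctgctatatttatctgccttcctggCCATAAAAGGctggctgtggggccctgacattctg
Fhl1 (chrX:56779556-56779615, plus strand): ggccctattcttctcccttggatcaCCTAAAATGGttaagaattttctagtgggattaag
In Vcl and Filip1l the capitals spell the same 10 letters. The first letter of the box lay at position -35 from the start in Ldb3 and -50 in Myl6, nearest to the start. It lay at -62 in Filip1l, -99 in Myom1, -102 in Fhl1, -161 in Myl9, -222 in Fbxl22 and -227 in Vcl.

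Genes of contraction, calcium handling, receptors and matrix were among the 20 with the highest ratio of members to the next class, taken among genes outside the rule's 6 markers with at least 50 CPM in members. Levels are means of 6 pools (± SD), each over all its bins, beside the highest other class, and they describe the chosen cells without a test. Pool 1 of control IgG gave 27 members, all from positive bins. Pln encodes phospholamban, the brake on the calcium pump of the sarcoplasmic reticulum, and stood at 917 CPM ± 442 against 3.85 in choroid plexus epithelial cells. Myocd, the transcriptional partner of serum response factor, had 162 CPM ± 88.3 against 2.32 in ependymal cells. Jph2, which ties the reticulum to the surface membrane, had 127 CPM ± 60.1, and Lmod1, an actin filament nucleator, 558 CPM ± 231 against 10.8 in pericytes. The receptor genes Olfr558 and Gpr20 stood at 119 CPM ± 48.1 and 84.3 CPM ± 43.3, both with pericytes next at 1.86 and 1.64. Tpm2, a tropomyosin, had 4611 CPM ± 2046 against 172 in fibroblasts, and its relative Tpm1 3283 CPM ± 1217 against 363. Xirp1, Fbxl22, Susd5, Nxnl2, Map3k7cl, Nrip2, Mustn1, Myom1, Ntn4, Crip1, Tgfb3 and Pdlim3 completed these 20 genes.

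Among the rule's markers, Acta2 averaged 11681 CPM ± 5885 and Tagln 9004 ± 3246. Cnn1 was nearly absent from pericytes (187 CPM ± 94.5 in members, 0.357 in pericytes), whereas Myl9, the regulatory light chain, was shared with them (5508 CPM ± 2342 against 1559).

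Clustering the members alone gave 15 clusters, which are left unnamed and described by their leading genes. The largest, with 666 members, was led by Actg2, Cnn1, Pi15 and Eln, and its 637 members from negative bins made up 95.6% of it. Eln encodes elastin, the elastic fibre protein of artery walls, and reached 407 CPM there against 108 in the other members. The next, with 541, was led by Olfr558, Smim5 and Rgs4, and a cluster of 343 was led by Ttr, a choroid plexus transcript, at 3776 CPM against 167. A cluster of 303 was led by Gm6249, Tmem255b and Cdh4, with Rgs5 at 5862 CPM, Ano1, a calcium-activated chloride channel, at 995, and Cnn1 at 0. Rgs5, which dampens G protein signals and is abundant in pericytes, stood at 287 CPM in the largest cluster.

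Other clusters carried genes of a second cell class. A cluster of 203 members was led by the pericyte genes Ggt1, Abcc9 and Kcnj8, with a median of 69 UMIs of the pericyte list against 21 of the rule's markers. Others were led by genes highest in astrocytes (161 members), microglia (90), endothelial cells (81), oligodendrocytes (79) and ependymal cells (24). The endothelial-led cluster had medians of 192 UMIs of the rule's markers and 83 of the endothelial list. A cluster of 43 was led by the fibroblast genes Cemip and Inmt, and had medians of 12 and 25 UMIs of the rule's markers and the fibroblast list. Of its 43 members, 31 were from control IgG and 2 from negative bins. The remaining 4 were a shallow cluster of 82 members (median 2082 UMIs) led by Gm43329, Ryr2 and Ctnna3, and clusters of 63 led by Ccl19 and Steap4, of 56 led by Pappa2 and S100a4, and of 12 led by Aldh1a2 and Wnt6. The last lay nearer to other classes, with medians of 80.5 pericyte-list and 41.5 fibroblast-list UMIs against 20.5 of the rule's markers.

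**Figure D1:**
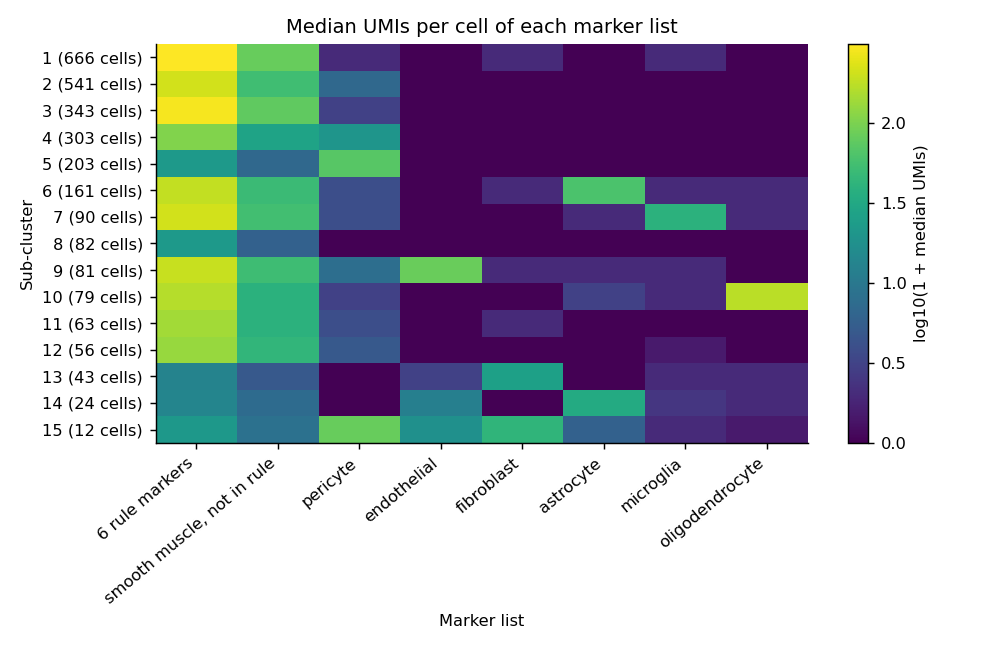
Each panel row is 1 of the 15 clusters of the members, with its size and the median UMIs per member of 8 marker lists. Smooth muscle has a list inside and a list outside the rule, and the ependymal list is not shown. The rule's markers dominate the largest clusters (309 and 207 median UMIs in the first 2), and the list of another class passes them in 5 clusters (pericyte, oligodendrocyte, fibroblast or astrocyte).

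Most of the sequenced members came from the negative AF647 bins. Of all members, 2409 (87.7%) were in negative bins, a proportion that was 87.9% for ATV-TfR, 86.6% for ATV-CD98hc and 88.2% for control IgG. The last sets 447 members of 1 negative library, from replicate 2, against 60 members of 6 positive libraries of both pools. These proportions also depend on how many barcodes each sorted library held. They are thus not compared between treatments and do not give the part of smooth muscle cells that fell in each gate. As a share of the filtered barcodes of a library, members made up 9.37% and 9.38% of the ATV-TfR negative libraries. The low libraries held 0.495% and 0.266%, the medium 0.224% and 0.130%, and the high 0.0460% and 0.0454%. No 2 bins of ATV-TfR overlapped, and each step up in dye had the lower share. The 9 members of ATV-TfR high replicate 1 give a 95% exact binomial interval of 0.0211% to 0.0874%, which covers counting error only.

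In ATV-CD98hc the negative libraries held 4.65% and 5.34%. The low libraries held 0.0498% and 0.0958%, the medium 0.0899% and 0.0681%, and the high 0.0767% and 0.0823%. Both negative libraries stood far above all others, and the 3 positive bins overlapped. Control IgG gave 3.67% in its 1 negative library, 0.445% and 0.517% in low, 1.31% and 0.874% in medium, and 1.52% and 0.828% in high. There the medium and high bins overlapped and lay above the low bin.

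**Figure D2:**
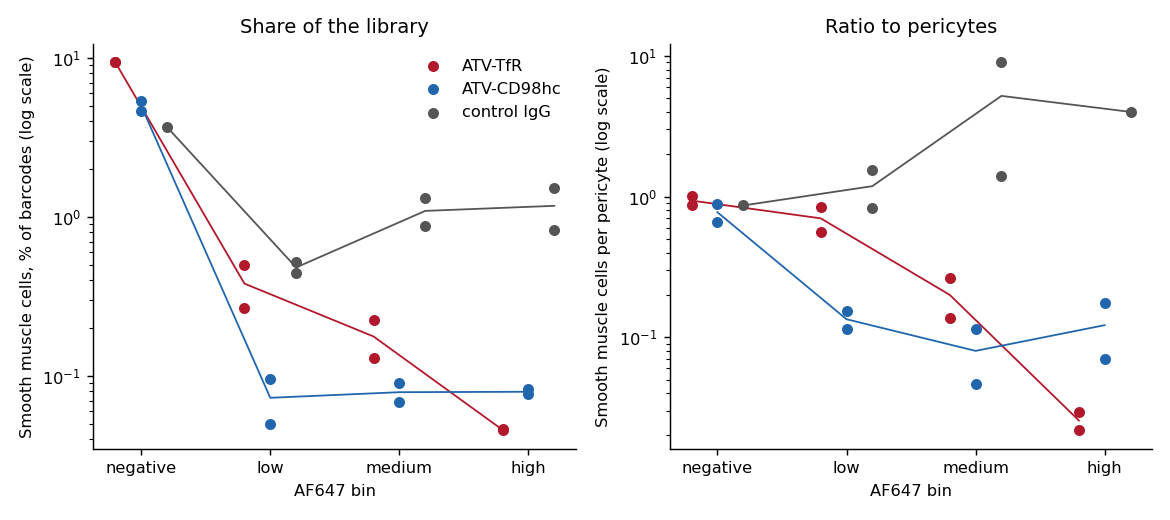
Members as a percent of filtered barcodes (log axis) and per pericyte, by AF647 bin and treatment, with 1 point per library. The ATV-TfR points fall at every bin from 9.37% to 0.0457% on average, whereas the ATV-CD98hc positive bins average 0.0728% to 0.0795%.

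A share depends on what else was gated, and the bins differed in that. Endothelial cells made up 93.8% of the ATV-TfR high and 93.7% of the ATV-CD98hc high barcodes on average, and astrocytes 88.2% of ATV-TfR low. Counted among non-endothelial barcodes, members were 9.51% and 9.50% in ATV-TfR negative, 0.51% and 0.27% in low, 0.27% and 0.16% in medium, and 0.64% and 0.85% in high. The high libraries then no longer lay below the medium ones. In ATV-CD98hc the shares were 4.71% and 5.43% in negative, 0.057% and 0.11% in low, 0.62% and 0.48% in medium, and 1.11% and 1.44% in high, so that its 3 positive bins no longer overlapped and the higher bins had the higher shares.

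The ratio to pericytes compares the mural cells with each other in the same library. In ATV-TfR there were 0.871 and 1.00 members per pericyte in the negative bin, 0.842 and 0.558 in low, 0.263 and 0.137 in medium, and 0.0217 and 0.0294 in high. The ratio was lower at every step with no overlap between bins. In ATV-CD98hc it was 0.889 and 0.658 in negative, 0.114 and 0.154 in low, 0.113 and 0.0464 in medium, and 0.174 and 0.0696 in high, so that only the negative bin stood apart. In control IgG it was 0.865 in negative and 0.833 and 1.54 in low. In its medium and high libraries there were 5 pericytes at most.

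Trends over the 4 bins were tested as the slope per bin of the log odds of the share and of the log2 ratio to pericytes, two-sided, by an exact permutation test that reassigned bins among the libraries of 1 treatment, adjusted over 6 slopes. In ATV-TfR the share fell by 1.68 per bin (natural log of the odds) and the ratio to pericytes by 1.72 per bin (log2; exact permutation p = 0.00079 each, adjusted p = 0.0024). That p is the smallest the 2520 arrangements of 8 libraries can give. Among non-endothelial barcodes the share slope was -0.83 (exact permutation p = 0.11) and did not pass. In ATV-CD98hc the slopes were -1.23 for the share (exact p = 0.050, adjusted 0.060) and -0.91 for the ratio (exact p = 0.033, adjusted 0.055), neither past 0.05 after adjustment, and the share slope was -0.22 among non-endothelial barcodes (exact p = 0.68). In control IgG the slope of the share was -0.097 (exact p = 0.74) and that of the ratio 1.08 (exact p = 0.037, adjusted 0.055). These arrangements cross pools. With bins rearranged only within a pool, a test added after seeing the data, the adjusted exact p was 0.010 for both ATV-TfR slopes and 0.083 or more for the other 4.

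Numbers of members per library were also compared with edgeR's quasi-likelihood test with the filtered barcodes as offset and adjustment over the cell classes of a contrast. Against the negative bin, ATV-TfR members were lower by log2 -4.62 (SE 0.38) in low, -5.71 (SE 0.40) in medium and -7.64 (SE 0.46) in high. In ATV-CD98hc the differences were -6.06 (SE 0.42), -5.97 (SE 0.42) and -5.95 (SE 0.43). Control IgG has 1 negative library, and its medium and high members are not called smooth muscle cells here. There the differences were -2.92 (SE 0.43), -1.77 (SE 0.47) and -1.69 (SE 0.49), and the medium one lost its call with at most 5% mitochondrial UMIs. All 9 passed the threshold (edgeR, Benjamini-Hochberg adjusted p of 0.0041 or less). Pericytes of ATV-TfR were lower than in their own negative bin by log2 -4.24 (SE 0.51) in low, -3.48 (SE 0.49) in medium and -2.46 (SE 0.46) in high. The drops of members and pericytes were not tested against each other.

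What the treatments' own steps differed by was tested in the same model. From negative to low, the drop of members was smaller in ATV-TfR than in ATV-CD98hc by 1.44 (SE 0.51, edgeR adjusted p = 0.024). From negative to high it was larger in ATV-TfR by -1.70 (SE 0.61, edgeR adjusted p = 0.034), and for the medium bin the difference was 0.25 (SE 0.51, edgeR adjusted p = 0.63). Both calls were lost in several alternatives. The low one was 0.93 without ATV-TfR replicate 1, 1.16 without ATV-CD98hc replicate 1 and 1.26 among non-endothelial barcodes. The high one was lost without any pool of either vehicle, at -0.80 with barcodes thinned and at -0.32 for members with at most 1 endothelial and 1 fibroblast UMI. The medium difference turned to -2.24 when counted among non-endothelial barcodes. Beside control IgG, all 3 steps of both vehicles were larger drops, by -1.71 to -5.95 for ATV-TfR and by -3.15 to -4.25 for ATV-CD98hc. Among non-endothelial barcodes the ATV-TfR high (-1.65), ATV-CD98hc medium (-1.14) and ATV-CD98hc high (0.060) differences did not pass. With at least 4 markers the ATV-TfR low (-1.17), ATV-TfR medium (-1.83) and ATV-CD98hc medium (-2.09) ones did not pass either.

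Which transcripts of neighbouring cells the members carried differed by bin and treatment. The sums below are a description only, since they include genes of the rule. These are Aqp4 and Gja1 (astrocyte), Cldn5 and Flt1 (endothelial), Cx3cr1 and P2ry12 (microglia) and Dcn (fibroblast). In ATV-TfR, 7 astrocyte genes summed to 574 to 611 CPM in the negative libraries, 2511 to 3020 in low, 3215 to 5063 in medium and 306 to 5357 in high. The astrocyte sums of low and medium members lay above both negative libraries. Over 8 endothelial genes the sums were 121 to 203 CPM in negative, 103 to 230 in low, 1589 to 3834 in medium and 5487 to 8575 in high, so that the endothelial genes rose between low and medium. The 6 microglia genes went the other way, from 492 to 566 CPM in negative to 97.6 to 134 in medium. In ATV-CD98hc the endothelial sum was 371 to 385 CPM in negative and 1277 to 2223 in low. Fibroblast genes reached 933 to 3864 in its high bin. Its astrocyte sum was 1253 to 1529 in negative and at most 57.4 in high, and that of control IgG was 1333 in negative and 0 to 58.6 in low.

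**Figure D3:**
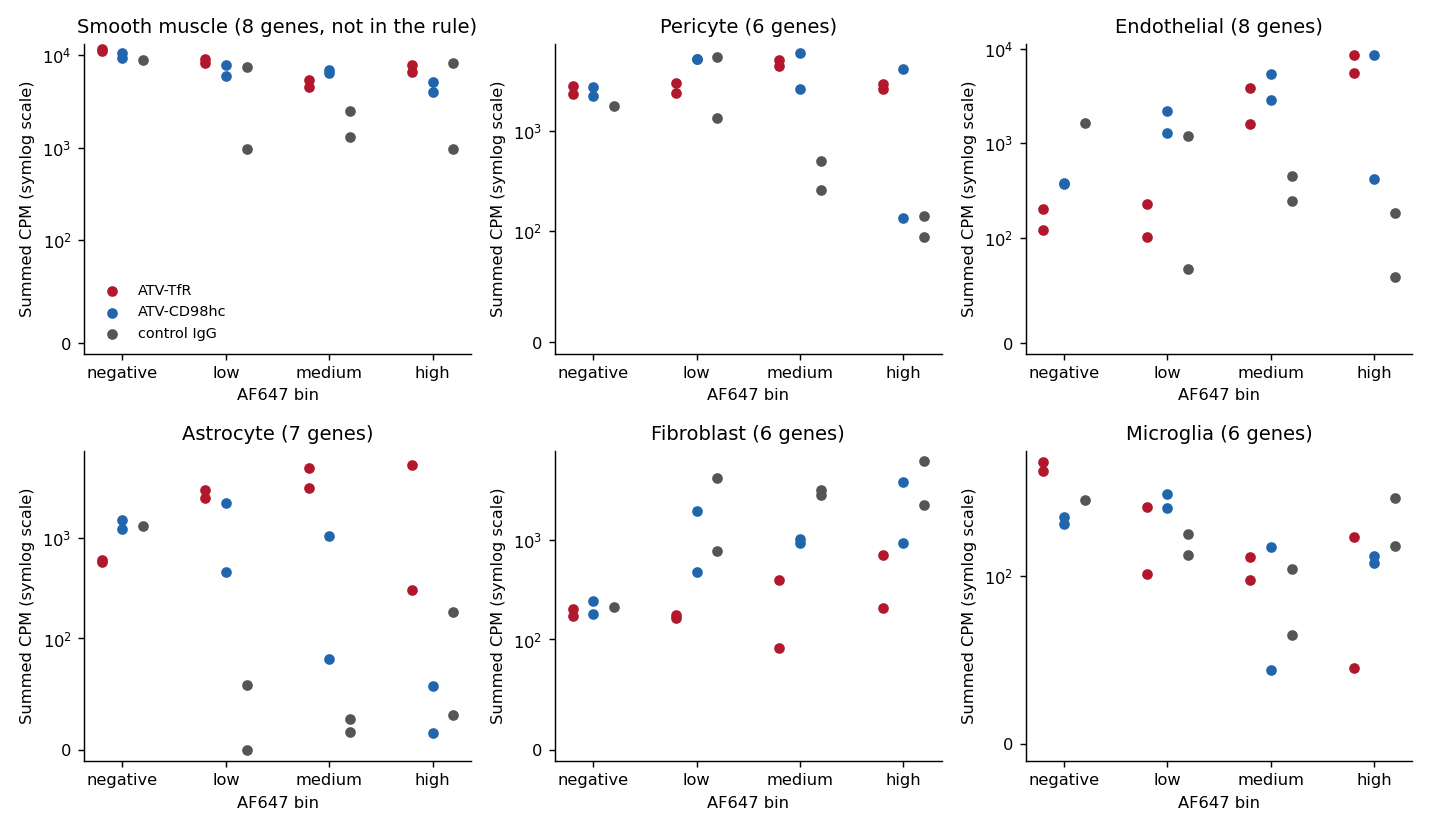
Summed CPM of marker lists in the members of each library (log axis with a linear range at its low end), by bin and treatment. The lists other than that of smooth muscle include genes of the rule. Endothelial-list points of ATV-TfR lie at 103 to 230 CPM in the low bin and at 5487 to 8575 in the high bin, and fibroblast-list points of control IgG lie at 2267 CPM or above in the medium and high bins.

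Members with at most 1 UMI of the endothelial list and at most 1 of the fibroblast list were counted by bin. Their share was 74.8% in ATV-TfR negative, 82.0% in low, 60.7% in medium and 41.2% in high. In ATV-CD98hc it was 77.0%, 64.3%, 43.3% and 15.8%. In control IgG it was 64.4% in negative, 15 of 30 in low, 18.8% in medium and 14.3% in high. That limit was chosen after seeing the data. It was not put on astrocyte, microglia, pericyte or oligodendrocyte transcripts. In shares, ratios and cell numbers it was put on members alone, not on pericytes or other barcodes. Values for these cleaner members are given for part of the results below, and their totals of called genes that moved by over 1.5 times are in the closing section. They left 19 and 15 members in the ATV-TfR medium libraries, so their comparisons with that bin took at least 10 members per library. How much of an expression difference comes from RNA of such neighbours was not tested.

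Expression was tested across 10698 genes on UMIs summed over the members of a library, with at least 20 members per library (edgeR quasi-likelihood, Benjamini-Hochberg adjusted p below 0.05). This left the negative libraries, the low and medium libraries of ATV-TfR and 1 low library of control IgG (20 members), which was in the fit but in no comparison. High bins and single positive bins of ATV-CD98hc held fewer. A lower level of a transcript in such a sum can come from fewer members that carry it or from less of it per member. For the 8 smooth muscle genes outside the rule, with every member thinned to 800 UMIs, 95.6% of ATV-TfR negative, 88.3% of low and 78.6% of medium members had a UMI, with medians of 9, 6 and 3 UMIs. Unthinned, the shares were 99.4%, 97.7% and 94.6% and the medians 60, 41 and 15. Both ATV-TfR comparisons and the treatment comparison below share the ATV-TfR negative libraries.

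Between the low and negative bins of ATV-TfR the change was mostly one of astrocyte transcripts, while most contractile genes did not pass the test. Of the 128 low members 28 were in the astrocyte-led cluster, against 42 of the 1466 negative members. The part of that cluster in the change was not tested. In all, 445 genes passed (4.16% of those tested), 405 higher (3.79%) and 40 lower (0.374%). The lower ones numbered 12 by DESeq2, 7 with at least 10 members per library and 95 with the pool as a block. Without ATV-TfR replicate 2 the total was 231, and among the cleaner members 267. Of the 405, 274 (67.7%) have their highest level in astrocytes, as do 1039 of all 10698 genes (9.71%), and all 5 astrocyte markers outside the rule rose. Ptprz1, a receptor phosphatase of glia, stood at 341 and 396 CPM in low against 50.8 and 50.7 in negative (log2 fold 2.79, SE 0.22, adjusted p = 1.4e-08). Vegfa, the growth factor for endothelium, had 105 and 179 CPM against 19.4 and 17.2 (log2 fold 2.83, SE 0.26). Both low libraries were high for both genes, and the absence of overlap was a condition for naming them. C1qa, a complement gene of microglia, had 61.2 and 0 CPM in low against 187 and 171 (log2 fold -2.36, SE 0.39), and 15 of the 40 lower genes have their highest level in microglia (7.52% of all genes tested). Another 9 of the 40 (22.5%) are highest in smooth muscle, against 5.44% of all genes tested, with the rule's genes kept in these counts.

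Of 29 contractile and cytoskeletal genes outside the rule, 3 were lower in the low bin and none was higher, with a median log2 fold of -0.47 against -0.03 over all genes tested. Smtn, smoothelin, a marker of contractile smooth muscle, had 125 and 133 CPM in low against 233 and 289.7 in negative (log2 fold -1.09, SE 0.24, adjusted p = 0.0052). Nexn, an actin-binding protein, had 184 and 145 against 279 and 346 (log2 fold -0.97, SE 0.22), and Csrp1, a LIM protein of actin filaments, 1379 and 1362 against 2359.9 and 2246 (log2 fold -0.81, SE 0.23). For all 3 the bins did not overlap, which with 2 libraries a bin is a description only. The share of all genes tested without overlap is not given here. With the pool as a block 9 of the 29 were lower, as were 0.888% of all genes tested. Without ATV-TfR replicate 1 or 2 none was, when 0.386% and 0.164% of all genes were. Among the cleaner members Csrp1 passed, while Smtn (-0.90, edgeR adjusted p = 0.064) and Nexn (-0.83, edgeR adjusted p = 0.065) did not. Pln, at 1019 and 1054 CPM against 1164 and 1283, did not pass (adjusted p = 0.59).

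In the low bin, genes of other roles that passed were few, when 3.79% of all genes tested were higher and 0.374% lower. Eln was lower, at 73.5 and 133 CPM against 197 and 202 (log2 fold -1.07, SE 0.25), the only one of 24 matrix and integrin genes. Pi15, a secreted protein of the largest cluster, which held 9 of 128 low and 350 of 1466 negative members, was lower by a log2 fold of -1.48 (SE 0.34). Neither passed among the cleaner members (-0.71 and -1.30), nor did S1pr3 (-0.77) and Atf3 (-3.05), described next. Of 20 vasoactive receptor and cyclic nucleotide genes, the endothelin receptor gene Ednrb was higher (66.1 and 60.9 CPM against 15.2 and 11.6) and the sphingosine 1-phosphate receptor gene S1pr3 lower (108 and 110.3 against 165 and 193). Ednrb has its highest level in astrocytes. Of the 15 early response genes, Atf3 was lower, at 0 and 3.80 CPM against 17.8 and 18.8. None of 24 calcium and ion channel genes, 18 transcription regulators, 14 Notch and PDGF genes, 19 uptake genes or 5 Fc receptor genes passed.

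Between the medium and negative bins of ATV-TfR the contractile programme was lower as a group, and endothelial transcripts were higher. In all, 848 genes passed (7.93%), 577 higher (5.39%) and 271 lower (2.53%). The total was 224 without ATV-TfR replicate 1 and 555 without replicate 2. Of the 271, 113 have their highest level in smooth muscle, as do 582 of all 10698 genes tested. Such counts by class keep the rule's genes, which chose the members. Of the 577, 244 are highest in astrocytes (9.71% of all genes tested) and 180 in endothelial cells (10.9%). Outside the rule, all 6 endothelial and all 5 astrocyte markers rose, and all 4 microglia and all 6 oligodendrocyte markers fell. Gkn3, a gene of arterial endothelium, stood at 390.4 and 668 CPM in medium against 9.09 and 8.14 in negative (log2 fold 5.62, SE 0.31).

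Of the 29 contractile genes, 24 were lower in medium and none was higher. Their median log2 fold was -1.30 against -0.06 over all genes tested, and -1.27 with 2 genes that had 0 UMIs in medium set at a floor of 3 counts over the group. The 2 were Actg2, the gamma smooth muscle actin gene, at least 4.25-fold lower, and Pgm5, at least 1.81-fold lower. The 8 smooth muscle markers outside the rule were all lower, with a median of -1.38. Tpm2 had 2966 and 2331 CPM in medium against 6185 and 6552 in negative (log2 fold -1.43, SE 0.21, adjusted p = 2.2e-05). Flna, filamin A, which crosslinks actin, had 705 and 698 against 1364 and 1739 (log2 fold -1.33, SE 0.22). Mustn1 had 434 and 386 against 1011 and 946 (log2 fold -1.41, SE 0.23), and Csrp1 895 and 475 against 2359.9 and 2246 (log2 fold -1.84, SE 0.25). In each of these genes both medium libraries lay below both negative ones, again a description of 2 libraries a bin.

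Fewer of the list passed in the other fits given here, which also called fewer of all genes lower (2.53% above). With libraries of at least 10 members in the fit, 7 of 28 were lower, with a median of -1.23, and 0.769% of all genes. With the same minimum and the cleaner members, 5 of 28 were lower, with a median of -0.80, and 0.586% of all genes. With that minimum and markers that held 3 times the UMIs of the other genes, 4 of 29 were lower, with a median of -0.87, and 0.578% of all genes. At the minimum of 20 that 3-fold rule left 1 medium library (replicate 1, 22 members), with 4 lower, a median of -0.78 and 0.255% of all genes. Without ATV-TfR replicate 1, 4 were lower (median -1.68, 0.334% of all genes), and without replicate 2, 1 (median -1.07, 0.948%). The medians thus lay nearer to 0 with the cleaner members and under the 3-fold rule. The medium bin held 56 members, 36 in replicate 1 and 20 in replicate 2, and the fit of all members with at least 10 per library held the same ones. Of the 56, 12 were in the endothelial-led cluster (8 of the 1466 ATV-TfR negative members), 11 in the astrocyte-led one (42) and 9 in the pericyte-led one (114), so that these members also carried genes of a second class. Another 12 were in the cluster of 303 that had Rgs5 at 5862 CPM (148). The Actg2-led cluster held 0 and 350. Clusters rest on the same UMIs and are a description only, and the part of second classes in the contractile difference was not tested.

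**Figure D4:**
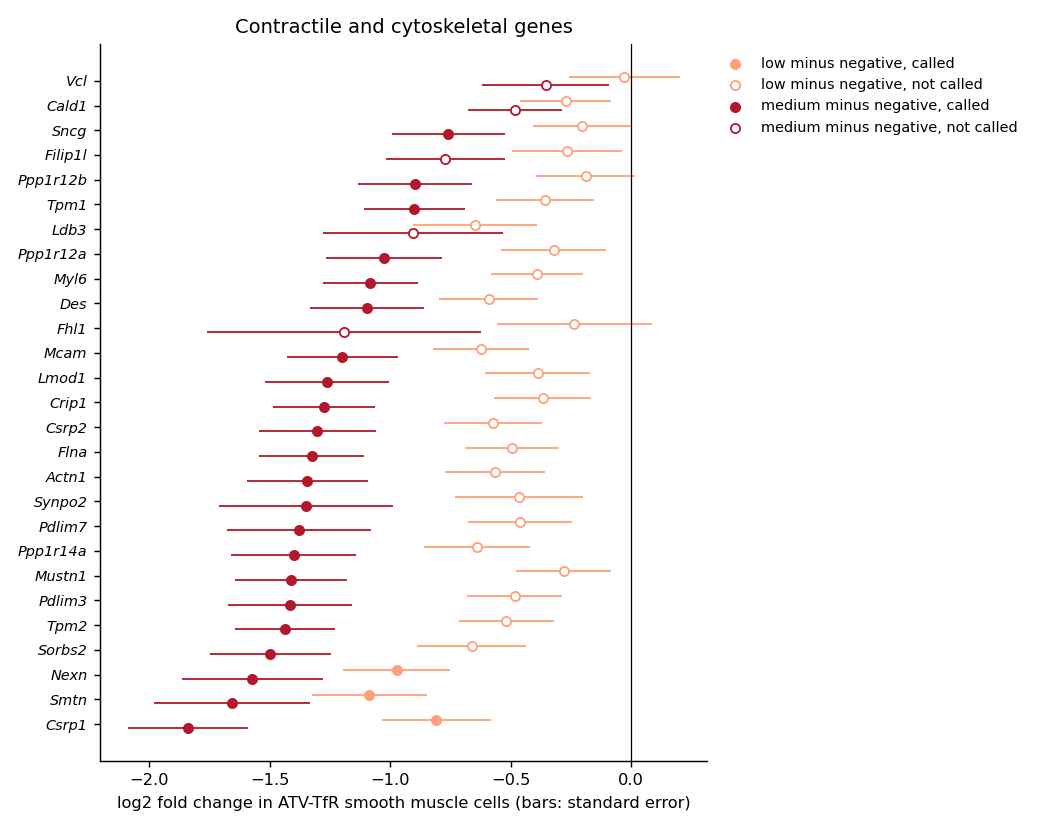
Log2 fold change of 27 contractile and cytoskeletal genes in ATV-TfR members, low minus negative and medium minus negative, with bars of 1 SE. All 27 medium values lie below 0, between -1.84 and -0.35, and the low values lie between -1.09 and -0.03.

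The genes with a CArG box shown above did not all pass. Myl6, the essential light chain, was lower at 4148 and 3638 CPM against 7121 and 7437 (log2 fold -1.08, SE 0.20, adjusted p = 0.00051). Fbxl22, an F-box gene of the sarcomere, had 92.2 and 134 against 284 and 300.1 (log2 fold -1.65, SE 0.31), and Myom1, myomesin, 287 and 193 against 488 and 456 (log2 fold -1.06, SE 0.25). Filip1l (log2 fold -0.77, edgeR adjusted p = 0.053, and 0.0035 with the pool as a block), Ldb3 (-0.91, adjusted p = 0.16), Fhl1 (-1.19, adjusted p = 0.26) and Vcl (-0.35, adjusted p = 0.54) did not pass. Myl9 belongs to the rule and had 4257 and 3771 CPM against 7813 and 7711. Myocd, with 108 and 89.1 CPM against 179.7 and 191, did not pass either (log2 fold -1.02, edgeR adjusted p = 0.079), but did with the block (-0.98, edgeR adjusted p = 0.022). These genes were named for the shown sequences, after values had been seen.

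Among 24 calcium and ion channel genes, 3 were lower and 3 higher in medium, when 2.53% of all genes tested were lower and 5.39% higher. Pln had 450.1 and 445 CPM against 1164 and 1283 (log2 fold -1.63, SE 0.22, adjusted p = 1e-05), and Ryr2, the calcium release channel, 59.6 and 14.8 against 179 and 178 (log2 fold -2.09, SE 0.40). Kcnma1, the large-conductance potassium channel gene, was the third lower one. Casq2, the calcium-binding calsequestrin gene, and Ano1 were among those higher, and both have their highest level in pericytes.

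Among 20 vasoactive and cyclic nucleotide genes, Rgs5 and Ednrb were higher (5.39% of all genes tested) and P2rx1 and Rgs7bp lower (2.53%). Rgs5 stood at 3253 and 7484 CPM in medium against 1457 and 1583 in negative (log2 fold 1.59, SE 0.25, adjusted p = 7.6e-05). P2rx1, the ATP-gated channel through which sympathetic nerves contract vessels, had 10.8 and 0 CPM against 51.8 and 40.1 (log2 fold -2.70, SE 0.73). Of 3 pericyte markers outside the rule, Ndufa4l2 (log2 fold 0.85, SE 0.22) and Vtn (0.73, SE 0.21) were higher and none was lower. Rgs5 did not pass without ATV-TfR replicate 2 (1.03, edgeR adjusted p = 0.43), with at least 10 members per library (1.71, edgeR adjusted p = 0.068) or under the 3-fold rule, where replicate 1 alone had 20 members (0.77, edgeR adjusted p = 0.089). It passed under the 3-fold rule with both medium libraries, at a minimum of 10 (1.91).

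Of 18 transcription regulators, Klf2, Klf4 and Mrtfb were higher (5.39% of all genes tested) and Foxc1 and Zfhx3 lower (2.53%). Klf2 is a shear-responsive factor of endothelium and had 575 and 238 CPM against 66.8 and 59.1 (log2 fold 2.68, SE 0.28). All 3 higher genes have their highest level in endothelial cells, and among the cleaner members, with at least 10 per library, Klf2 had a log2 fold of -0.33. It was 2.74 with that minimum and all members. Foxc1, a forkhead factor of mural development, had 81.3 and 44.5 CPM against 150.1 and 165 (log2 fold -1.32, SE 0.35). Of 14 Notch and PDGF genes, Eng and Pdgfb were higher and Ptp4a3 lower (277 and 342 CPM against 510.5 and 555, log2 fold -1.01, SE 0.24). Notch3, the receptor whose human gene is mutated in CADASIL, had 721 and 1084 against 703 and 757 and did not pass.

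Of 24 matrix and integrin genes, 4 were lower and none higher, when 2.53% of all genes tested were lower and 5.39% higher. Itgb1, the common beta 1 integrin subunit, had 716 and 698 CPM against 1084 and 1076 (log2 fold -0.79, SE 0.21), and Itga8 43.4 and 104 against 163 and 153 (log2 fold -1.55, SE 0.38). Sparcl1, a secreted matricellular protein, had 4441 and 3742 against 5998 and 5833 (log2 fold -0.71, SE 0.19), and Col18a1 was also lower. In caveolae, which are dense in smooth muscle, the coat genes Cavin1 (710.3 and 624 CPM against 869 and 1185) and Cavin3 (428 and 386 against 716 and 699) were lower, with log2 folds of -0.78 and -0.95. Cavin2 and Dab2 were higher, at 168 and 44.5 CPM against 4.55 and 3.13 for Cavin2. These 4 were those that passed of 19 uptake genes. Of 15 early response and stress genes, Ier2 was higher and Hsp90aa1 lower (445 and 356 CPM against 716 and 574). Flna, Myl6, Myom1, P2rx1, Ndufa4l2, Vtn, Foxc1, Eng, Ptp4a3, Itgb1, Itga8, Sparcl1, Cavin1, Cavin3 and Hsp90aa1 did not pass among the cleaner members. With at least 10 members per library and all members, these did not pass either, other than Foxc1 and Eng.

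The medium and low bins were also set against each other, a comparison added after seeing the data. It called 131 genes (1.22%), 100 higher (0.935%) and 31 lower (0.290%), and 81 of the 100 have their highest level in endothelial cells (10.9% of all genes tested). Of the 29 contractile genes 4 were lower, Mustn1, Tpm2, Crip1 and Csrp1, with a median log2 fold of -0.76 over the list. Pln was lower, at 450.1 and 445 CPM against 1019 and 1054 (log2 fold -1.33, SE 0.23, adjusted p = 0.0011). Among the cleaner members Pln did not pass (-1.09), nor with at least 10 members per library (-1.29). With the pool as a block 8 of the 29 were lower, as were 0.608% of all genes tested. None of the 29 was lower with at least 10 members per library, whether all members, the cleaner ones or those of the 3-fold rule were taken (0.0898%, 0.0221% and 0.0347% of all genes), nor with 1 medium library under the 3-fold rule (0.017%). None was without ATV-TfR replicate 1 (0.0351%) or 2 (0.328%), and without replicate 1 the total was 27 genes.

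The receptors that the antibodies bind were compared between treatments in the negative bins, where members are most numerous. Between ATV-TfR and ATV-CD98hc, 48 genes were higher (0.449%) and 200 lower (1.87%) on the ATV-TfR side, 248 in all. The total was 60 without Scrublet doublets. Leaving out replicate 1 gave 145 for the ATV-TfR pool and 118 for the ATV-CD98hc pool. Tfrc, the transferrin receptor gene, had 18.2 and 15.3 CPM in ATV-TfR against 44.4 and 28.4 in ATV-CD98hc (log2 fold -1.16, SE 0.28, adjusted p = 0.019). Slc3a2, the CD98hc gene, had 68.8 and 71.0 CPM in ATV-TfR against 35.8 and 45.2 in ATV-CD98hc (log2 fold 0.84, SE 0.21, adjusted p = 0.022). In each case the libraries of the mice carrying the knock-in of that receptor were the lower ones and did not overlap with the others. How reads from the knock-in alleles were counted is not given in the sources used here, so a difference in RNA and one in counting cannot be told apart. Nor can the negative gate, which leaves out cells that carry the dye and so may keep different cells in each treatment. Endothelial cells made up 1.43% of ATV-TfR negative, 1.45% of ATV-CD98hc negative and 23.2% of control IgG negative barcodes. Slc3a2 had a lower mean in ATV-CD98hc than in ATV-TfR in all 6 other classes compared, for example 84.9 against 168 CPM in pericytes and 137 against 291 in astrocytes, so the direction was not particular to smooth muscle.

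Control IgG had 1 negative library, which is assumed to vary like the other groups in every test against it. Beside it, Tfrc at 56.1 CPM was higher than in ATV-TfR (log2 fold -1.68, SE 0.27, adjusted p = 0.00033), and Slc3a2 at 87.7 CPM was higher than in ATV-CD98hc (log2 fold -1.12, SE 0.24, adjusted p = 0.023). The other receptor of each pair did not pass, with Slc3a2 in ATV-TfR at a log2 fold of -0.28 and Tfrc in ATV-CD98hc at -0.51. Against control IgG, the ATV-TfR call of Tfrc was lost under DESeq2, without Scrublet doublets (-1.05, edgeR adjusted p = 0.84) and among the cleaner members (-0.87). The ATV-CD98hc call of Slc3a2 was lost under DESeq2, without doublets (-0.76), among the cleaner members (-0.71), under the 3-fold rule (edgeR adjusted p = 0.051), with a minimum of 10 or 50 members, with the replicate number as a block, and without either ATV-TfR pool or ATV-CD98hc replicate 1. The Tfrc difference from ATV-CD98hc was lost under DESeq2, without Scrublet doublets, among the cleaner members (-0.50) and without ATV-CD98hc replicate 1 (-0.74). That of Slc3a2 was lost under DESeq2, without doublets (0.76) and without either ATV-TfR pool, but stood at 1.17 among the cleaner members.

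Tfrc was sparse in smooth muscle. With every cell thinned to 800 UMIs, a Tfrc UMI was found in 1.02% of ATV-TfR members, 1.81% of ATV-CD98hc members and 2.68% of control IgG members, against 8.94%, 12.1% and 22.8% unthinned. Microglia had 0.502%, 0.215% and 1.23% after thinning, at median depths of 2991, 3093 and 3781 UMIs against 5263, 4351 and 5531 in members. Pericytes had 1.07%, 0.792% and 3.87% after thinning, and fibroblasts 0.386%, 0% and 0%. Astrocytes, oligodendrocytes and endothelial cells lay above members in each treatment. The level that free RNA alone would give was not measured. Tfrc in negative-bin endothelial cells averaged 58.0 CPM ± 17.2 (SD, n = 2) under ATV-TfR and 156 ± 1.37 (SD, n = 2) under ATV-CD98hc, and stood at 472 under control IgG. The members' means were 16.8 ± 2.02 (SD, n = 2), 36.4 ± 11.3 (SD, n = 2) and 56.1. Both classes had the same order of treatments, with 225, 141 and 2824 endothelial cells behind the endothelial values. So did pericytes (10.5, 21.3 and 69.4 CPM), astrocytes (23.7, 48.6 and 68.0), oligodendrocytes (17.3, 36.5 and 48.2) and microglia (6.59, 10.5 and 16.9). Fibroblasts did not (5.24, 4.09 and 23.3). Of 6 endothelial markers outside the rule, all 6 were lower in members of ATV-TfR than of control IgG and 3 lower than of ATV-CD98hc. None of the calls against control IgG held without Scrublet doublets. The part of endothelial or free RNA in the Tfrc difference was not tested.

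**Figure D5:**
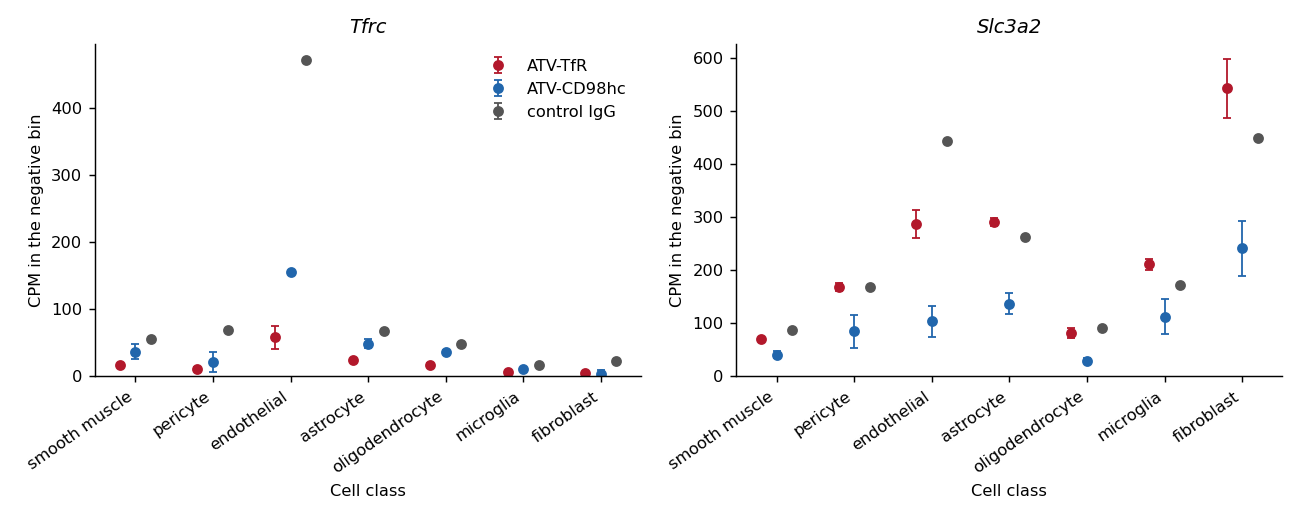
CPM of Tfrc and Slc3a2 in negative-bin members and other classes, by treatment. Each point is a mean over libraries, with an SD bar for ATV-TfR and ATV-CD98hc (n = 2). Among the members, those of ATV-TfR have the lowest Tfrc (mean 16.8) and those of ATV-CD98hc the lowest Slc3a2 (mean 40.5). Some other classes lie lower, such as ATV-TfR fibroblasts for Tfrc (5.24) and ATV-CD98hc oligodendrocytes for Slc3a2 (29.7).

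Partners of CD98hc and genes of iron handling in the negative bins were tested as a list of 12. Slc7a5, the main light chain that CD98hc carries in endothelium, was lower in ATV-TfR than in ATV-CD98hc at 3.56 and 4.07 CPM against 14.2 and 18.1 (log2 fold -2.01, SE 0.40, adjusted p = 0.0042). Slc7a11, the cystine exchanger, had 11.9 and 18.1 against 38.3 and 63.3 (log2 fold -1.70, SE 0.29), and Slc7a10 21.9 and 18.1 against 43.2 and 58.1 (log2 fold -1.25, SE 0.24). With Slc3a2 higher and Tfrc lower, 5 of the 12 passed (1 higher and 4 lower), as did 2.32% of all genes tested (0.449% higher and 1.87% lower). Slc7a5 did not pass under DESeq2, without doublets, under the 3-fold rule, with a minimum of 10 members or without ATV-CD98hc replicate 1. Among the cleaner members it had too few UMIs to be tested. They held 12 and 8 Slc7a5 UMIs of 3421842 and 2276511 in ATV-TfR, and 3 and 5 of 1115097 and 560881 in ATV-CD98hc. As fractions of all UMIs, these libraries overlapped between the treatments. Slc7a11 (-1.23) and Slc7a10 (-1.16) passed among the cleaner members, a limit that was not put on astrocyte transcripts. The part of astrocyte RNA in these differences was not tested. Of the 200 lower genes 119 have their highest level in astrocytes (9.71% of all genes tested), and of the 48 higher genes 36 in microglia (7.52%). Microglia-list sums were 492 to 566 CPM in the members of ATV-TfR negative against 221 to 246 in ATV-CD98hc negative, and astrocyte-list sums 574 to 611 against 1253 to 1529. Both sums include genes of the rule.

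Few genes of the muscle lists passed between the treatments in the negative bins. None of 29 contractile, 24 calcium, 18 transcription, 14 Notch and PDGF, 24 matrix, 19 uptake or 15 early response genes passed between ATV-TfR and ATV-CD98hc. Ednrb, 1 of 20 vasoactive genes (15.2 and 11.6 CPM against 30.2 and 37.5), and Slc4a4, a bicarbonate carrier and 1 of 7 arteriolar genes outside the rule (86.4 and 84.5 against 220.4 and 213), were lower, and both have their highest level in astrocytes. Ednrb did not pass among the cleaner members (-1.01). The contractile median was 0.15. Pln had 1164 and 1283 CPM against 1069.8 and 1139.7 (log2 fold 0.16, SE 0.18), and Tpm2 6185 and 6552 against 5073 and 5903 (log2 fold 0.23, SE 0.20). Set against the 1 library of control IgG, whose spread is taken from the other groups, 302 genes passed for ATV-TfR (2.82%), 25 higher (0.234%) and 277 lower (2.59%). For ATV-CD98hc the same test gave 0 higher and 43 lower (0.402%), with 409 genes at an unadjusted p below 0.05 in either direction and 6 called by DESeq2. Without Scrublet doublets the ATV-TfR total went from 302 to 0 (611 at an unadjusted p below 0.05, 84 by DESeq2 with doublets kept) and that of ATV-CD98hc from 43 to 1. Again no contractile gene passed, while Klf4, Ednrb, Slc4a4, Cavin2 and Dab2 were lower in ATV-TfR than in control IgG. Slco1a4, an organic anion carrier of brain endothelium, had 2.97 and 5.01 CPM in ATV-TfR members against 166 in control IgG. For ATV-CD98hc against control IgG the split by direction was not stable. Some genes were called higher whenever a pool of either vehicle was left out.

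In the medium bin of ATV-TfR, Slc3a2 was higher than in its negative bin at 163 and 223 CPM against 68.8 and 71.0 (log2 fold 1.20, SE 0.27, adjusted p = 0.0045). It did not pass with at least 10 members per library (1.28, edgeR adjusted p = 0.11) or with that minimum among the cleaner members (0.75, edgeR adjusted p = 0.39). Slc7a10 (log2 fold 2.98, SE 0.34) and Slc7a11 (log2 fold 2.73, SE 0.46) were also higher, and the ferritin heavy chain gene Fth1 lower, at 3714 and 2836 against 6422 and 6410.3 (log2 fold -1.14, SE 0.21). Tfrc had 5.42 and 44.5 CPM from 1 and 3 UMIs and did not pass (adjusted p = 0.93). In the low bin, Slc7a10 and Slc7a11 were higher, by log2 folds of 2.44 and 2.20, while Tfrc and Slc3a2 did not pass. Of 5 Fc receptor genes Fcer1g was lower in medium, when 2.53% of all genes tested were lower. All 4 microglia markers outside the rule were lower in the same comparison, and the part of microglia RNA was not tested. Fcgrt, the neonatal Fc receptor that recycles IgG, had 179 and 223 CPM against 111 and 115 (adjusted p = 0.26).

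The 3 positive bins of a pool were summed, also after seeing the data, so that ATV-CD98hc could be tested. Of 11327 genes, 334 passed (2.95%), 289 higher (2.55%) and 45 lower (0.397%) in its positive members. With the pool as a block the total was 857, and without ATV-CD98hc replicate 1 it was 24. Among the cleaner members it was 30 (18 higher, 12 lower), where 1 positive sample of 21 members (replicate 2) stood against 2 negative ones. With at least 10 members per sample it was 19 (12 higher, 7 lower), from 13 and 21 positive members. Of the 289, 114 have their highest level in endothelial cells (10.9% of all genes tested) and 109 in fibroblasts (8.92%). Outside the rule, all 6 endothelial and 4 of 5 fibroblast markers were higher. Among the cleaner members, which are chosen by those lists, none of those tested passed. Whether contractile genes passed depended on the fit. None of 29 did without a block, and 22 were lower with the pool as a block, which compares bins of the same animals and called 3.43% of all genes lower (388). The median log2 fold was -0.74 without and -0.73 with it, against -0.06 over all genes. Without control IgG replicate 1 or 2, which belong to neither group compared but share the fit, 16 and 15 were lower, and 1.64% and 1.49% of all genes. Tpm2, at 3553 and 3161 CPM against 5073 and 5903, had a log2 fold of -0.84 (SE 0.49, edgeR adjusted p = 0.49, and 2.2e-05 with the block). Pln had -0.91 (SE 0.57, edgeR adjusted p = 0.53, and 0.00011 with the block).

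The light chain Slc7a5 was higher in ATV-CD98hc positive members, at 199.5 and 113 CPM against 14.2 and 18.1 (log2 fold 3.17, SE 0.37, adjusted p = 0.00014). Slc7a11 followed at 409 and 452 against 38.3 and 63.3 (log2 fold 3.01, SE 0.47). B2m, the partner chain of the neonatal Fc receptor and of MHC class I, had 199.5 and 189.7 against 58.0 and 76.2 (log2 fold 1.43, SE 0.31). Slc3a2, at 48.7 and 126 CPM against 35.8 and 45.2, did not pass (log2 fold 1.03, adjusted p = 0.41), nor did Tfrc (0.64, adjusted p = 0.62). The cleaner positive members held few UMIs of these genes. In replicates 1 (13 members) and 2 (21 members) there were 0 and 0 of Slc7a5, 0 and 3 of Slc7a11, 3 and 5 of B2m and 2 and 1 of Slc3a2. Fitted with both samples, Slc7a11 (-0.75), B2m (-0.062) and Slc3a2 (-0.62) did not pass, and Slc7a5 had too few UMIs to be tested. Without ATV-CD98hc replicate 1, none of Slc7a5, Slc7a11 and B2m passed with all members (log2 folds 2.50, 2.70 and 1.18).

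Summed in the same way, positive ATV-TfR members had 601 genes past the threshold (5.31%), 559 higher (4.94%) and 42 lower (0.371%). The total was 1017 with the pool as a block, 54 without ATV-TfR replicate 1 and 121 without replicate 2. Of the 29 contractile genes none passed without the block (median -0.65) and 23 were lower with it (median -0.64), when 2.42% of all genes were called lower (274). Without control IgG replicate 1 or 2, 12 and 15 were lower, and 1.01% and 1.24% of all genes. An endothelial-list UMI was found in 14.8% of ATV-TfR negative members, 20.3% of low, 44.6% of medium and 64.7% of high. For the astrocyte list the shares were 35.1%, 82.0%, 83.9% and 17.6%. Both lists include genes of the rule, and the part of such transcripts in these counts was not tested. The difference between the treatments' positive minus negative contrasts was itself past the threshold for 259 genes (2.29%), 216 toward ATV-TfR (1.91%) and 43 toward ATV-CD98hc (0.380%). Ednrb (3.66, SE 0.57, adjusted p = 0.0021) and Slc7a10 (3.54, SE 0.56, adjusted p = 0.0019) were among them, and 4 of 5 astrocyte markers outside the rule. Among the cleaner members, with at least 10 per sample, the total was 149, Slc7a10 passed (3.05) and Ednrb did not (2.31, edgeR adjusted p = 0.099). No contractile, calcium, transcription, matrix or Notch gene was.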

How the data were processed

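RNA of single cells was counted in 23 libraries. The authors deposited unnormalized whole-number UMI counts of each gene in each barcode. They were made with Cell Ranger 7.1.0 on mm10/GRCm38, per the submitters' processing notes, which also name Seurat 4 and 5. The remaining deposited tables (unit: other) name the barcodes, the genes and each barcode's library, per the file headers. The sources used here do not give the annotation release or how knock-in alleles were counted.

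From these counts, barcodes were filtered and members chosen by the rule. The members, the 10 gene lists and the 17 marker lists were chosen with earlier results of these data known. Other cell classes were assigned by summed marker UMIs. Doublets were marked with Scrublet (scanpy 1.11.5) and left out only in an alternative. In 8 libraries its threshold was a percentile of the score. Members were clustered on 2000 variable genes, 30 components and 15 neighbours at resolution 0.5 (igraph 0.11.9), without batch integration.

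UMIs summed per library were tested with edgeR 4.0.16 (TMM, its filter on low counts, quasi-likelihood test, 1 mean per group, R 4.3.3), with at least 20 members per library and Benjamini-Hochberg adjustment over all genes tested. Scripts were tested on simulated data. The comparisons of the high bins, of single ATV-CD98hc and control IgG positive bins and of the differences between treatments bin by bin were not run at that minimum, and sums over the positive bins were added. DESeq2 1.42.0 was an alternative. Where an alternative left 1 library in a group, that library was assumed to vary like the other groups. CPM values are a gene's UMIs over all UMIs of a library's members on the usual CPM scale and are not divided by length, so levels are compared between samples, not genes. Named genes were, per comparison, the 8 largest changes in each direction among called genes with a mean of at least 50 CPM and no overlap between groups, up to 4 called and 2 other genes of each list, and Tfrc and Slc3a2. Genes outside this rule were chosen after their values were seen (Pi15 and the genes with a CArG box among them), and not every gene it gives is described.

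The bins of a pool come from the same animals per the labels, and that is where the pairing of bins comes from. Deviations of same-numbered libraries correlated between groups at -0.047 to 0.047. Replicate numbers do not pair animals across treatments. With 2 pools a group, p-values rest on the spread between pools. Some results are not reported here.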

Additional observations from a re-analysis of the deposited data

Results flagged for a closer look

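The drop in members from the negative bin to a positive bin differed between treatments, by tests of the difference itself in edgeR's model of cell numbers (log2 scale, Benjamini-Hochberg adjusted p). Between ATV-TfR and ATV-CD98hc it differed by 1.44 in the low bin (SE 0.51) and by -1.70 in the high bin (SE 0.61). Between ATV-TfR and control IgG it differed by -1.71 in low (SE 0.58), -3.95 in medium (SE 0.65) and -5.95 in high (SE 0.72). Between ATV-CD98hc and control IgG it differed by -3.15 in low (SE 0.62), -4.20 in medium (SE 0.67) and -4.25 in high (SE 0.70). Both sets against control IgG rest on its 1 negative library, and its 30 members in the medium and high bins had medians of 4 (medium) and 5.5 (high) UMIs of the 8 smooth muscle genes outside the rule, against 53 in the negative library. Endothelial cells made up 23.2% of the control IgG negative library, and the drops measured outside that class are given with the alternatives.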

How the results depend on the processing

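The fall of ATV-TfR members over the bins kept its direction under all alternatives run, and its slope became -0.83 per bin, no longer past the threshold, among non-endothelial barcodes. Without 1 ATV-TfR pool the slopes were -1.69 to -1.68 for the share and -1.74 to -1.70 for the ratio to pericytes, where 4 libraries cannot give a p below 0.083. The ATV-CD98hc share slope was -0.22 among non-endothelial barcodes. Its slopes passed at -1.40 (share) and -1.22 (ratio) with barcodes thinned to 800 UMIs. Both passed at -1.67 and -1.55 for members with at most 1 endothelial and 1 fibroblast UMI. That limit was not put on pericytes or other barcodes. It kept 77.0% of ATV-CD98hc negative and 15.8% of high members, so the limit alone makes both slopes steeper. The ratio also passed at -1.08 under the 3-fold rule and -0.89 without Scrublet doublets. The control IgG ratio slope, 1.08 in the main fit, passed without doublets (1.22). It was 0.84 under the 3-fold rule, 0.70 with 4 markers and 0.31 for the cleaner members, and did not pass there. The control IgG share slope ran from -0.38 to 0.63 over the pools left out.

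The difference between the ATV-TfR and ATV-CD98hc drops was lost for the low bin with at least 1500 UMIs (1.34), at most 5% mitochondrial UMIs (0.58) and non-endothelial barcodes (1.26), and without ATV-TfR replicate 1 or ATV-CD98hc replicate 1 (range over the pools left out 0.93 to 1.89). For the medium bin it turned to -2.24 among non-endothelial barcodes and spanned -0.20 to 0.59, turning without ATV-TfR replicate 1 (-0.20) and ATV-CD98hc replicate 2 (-0.040). For the high bin it was lost under the 3-fold rule (-1.53), with 4 markers (-1.46), thinned (-0.80), for the cleaner members (-0.32) and without any pool of either vehicle (-1.74 to -1.64). Against control IgG, the ATV-TfR low difference was lost under the 3-fold rule (-1.23), with 4 markers (-1.17), for cleaner members (-1.20) and without ATV-TfR replicate 2 (range over pools -2.22 to -1.32). The medium one was lost with 4 markers (-1.83) and for cleaner members (-2.46), and the high one among non-endothelial barcodes (-1.65). The ATV-CD98hc medium difference was lost with 4 markers (-2.09) and among non-endothelial barcodes (-1.14), where the high one turned to 0.060. With at most 5% mitochondrial UMIs the control IgG medium drop was -1.15 and did not pass.

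Counts of called genes moved with the members, the libraries and the filter. For ATV-TfR low (445) they were 233 with a mean of at least 50 CPM, 253 with at least 10 members per library, 163 with at least 50 (which leaves 1 low library, replicate 1), and 267 and 274 for the cleaner members (at least 20 and 10 per library). Over the pools left out they were 231 (without ATV-TfR replicate 2) to 468. For ATV-TfR medium (848) they were 463 (CPM), 451 (10 members), 262 (3-fold rule, 1 medium library), 246 and 254 (3-fold rule and cleaner members, each with at least 10 per library) and 224 to 901 over the pools, with 224 and 555 without ATV-TfR replicates 1 and 2. Medium against low (131) gave 224 without a filter, 69 (10 members), 3 (3-fold rule, 1 medium library), 3 and 2 (3-fold rule and cleaner, each with at least 10) and 27 (without ATV-TfR replicate 1) to 156 over the pools. For ATV-TfR against ATV-CD98hc in the negative bin (248) they were 63 by DESeq2, 130 (CPM), 80 (10 members), 60 (no doublets), 142 and 145 (cleaner) and 118 to 248 over the pools, with 145 when ATV-TfR replicate 1 and 118 when ATV-CD98hc replicate 1 was left out. Against control IgG, ATV-TfR (302) gave 84 by DESeq2, 130 (CPM), 136 (10 members), 181 (3-fold rule with at least 10), 0 (no doublets, edgeR; 611 at an unadjusted p below 0.05), 1 and 5 (cleaner) and 181 to 387 over the pools, with 188 and 181 without ATV-TfR replicates 1 and 2. ATV-CD98hc (43) gave 6 by DESeq2, 116 (no filter), 19 (CPM), 14 (10 members), 24 (3-fold rule with at least 10), 1 (no doublets), 1 and 1 (cleaner) and 31 to 86 over the pools, with 86 and 77 without ATV-TfR replicates 1 and 2.

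With the pool as a replicate block, bins rearranged only within pools gave the same calls for all 6 slopes. In the summed positive bins, with that block, ATV-TfR went from 601 to 1017 and ATV-CD98hc from 334 to 857. ATV-TfR gave 168 (CPM) and 54 to 755 over the pools, with 54 and 121 without its replicates 1 and 2. ATV-CD98hc gave 690 (no filter), 129 (CPM), 167 (3-fold rule), 30 (cleaner, 1 positive sample), 19 (cleaner, at least 10) and 24 to 571 over the pools, with 24 and 115 without its replicates 1 and 2, 221 without ATV-TfR replicate 1, and 571 and 567 without control IgG replicates 1 and 2. The difference between them (259) was 484 (no filter), 86 (CPM), 115 (no doublets), 54 (cleaner, 1 ATV-CD98hc positive sample), 149 (cleaner, at least 10) and 50 to 346 over the pools, with 60 and 51 without ATV-TfR replicates 1 and 2 and 50 and 136 without those of ATV-CD98hc. The block changed no other total of called genes by over 1.5 times. Contractile genes called as lower went with it from 3 to 9 in ATV-TfR low, from 4 to 8 in medium against low, from 0 to 23 in ATV-TfR positive and from 0 to 22 in ATV-CD98hc positive members. Tfrc (1.08) and Slc3a2 (0.82) passed with it in ATV-TfR positive members. Replicate numbers do not pair animals across treatments. With them as a block, Slc3a2 in ATV-CD98hc against control IgG was -1.05 and did not pass (edgeR adjusted p = 0.088).

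Single genes that turned were these. In ATV-TfR medium, Klf2 was -0.33 and Tfrc 0.11 for cleaner members and Tfrc 0.0059 under the 3-fold rule, each with at least 10 per library. With 1 medium library under the 3-fold rule Eng was -0.696 and Notch3 -0.43. Notch3 was -0.0054 without a filter, -0.091 without doublets and -0.094 to 0.25 over the pools, negative without ATV-TfR replicate 2. Over the pools Tfrc ran from -1.86 to 1.27 in medium and from -0.061 to 1.14 in low, turning in both without ATV-TfR replicate 1. Without doublets, Ctss was -0.018 and C1qa -0.36 between ATV-TfR and ATV-CD98hc. Slc3a2 in ATV-TfR against control IgG was 0.46 and 0.42 for cleaner members. In ATV-CD98hc positive members, cleaner ones gave -0.79 for Klf2 and -1.45 for Slc3a2 from 1 positive sample, and -0.62 for Slc3a2, -0.75 for Slc7a11 and -0.062 for B2m from 2. The cause of these shifts was not tested. Positive libraries of ATV-CD98hc and control IgG with 6 to 20 members each limit what those bins can show.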

Other observations

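A part of the members' transcripts named no group of the comparisons. In the cluster of 343 members led by Ttr, the transthyretin gene of the choroid plexus, Ttr stood at 3776 CPM against 167 in the other members, beside Csrp1 at 3226 and Des at 1232 CPM. Of these 343, 266 came from ATV-TfR, 57 from ATV-CD98hc and 20 from control IgG. The shallow cluster of 82 members had Ryr2 at 1444 CPM and Ctnna3 at 6289 CPM, against 168 and 842 in the other members, with Cacnb2 at 4196 CPM and Myl9 at 575.

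Summed genes of venous smooth muscle overlapped between the bins of ATV-TfR. The 6 genes of that list summed to 2473 to 2611 CPM in negative, 2540 to 3066 in low, 2532 to 3014 in medium and 1990 to 2756 in high members. Among them Car4 has its highest level in endothelial cells, Rgs4 in pericytes and Mgp in fibroblasts, so the sum is not particular to venous smooth muscle. The 8 genes of the arteriolar list, 1 of which (Cnn1) belongs to the rule, summed to 8465 to 10217, 7384 to 8552, 5081 to 5271 and 5672 to 6865 CPM. Of the 6 venous genes, Aspn, a small matrix proteoglycan gene, was lower in medium than in negative members at 271 and 252 CPM against 449.6 and 488 (edgeR adjusted p = 0.011).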
